A study of Gallus gallus with 21 samples.

Results

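Chicken chromosome 16 is a microchromosome that carries the major histocompatibility complex (MHC). The 29 mRNAs that the deposited table of expression values places on it were chosen by that position, out of 14558 mRNAs in the table (0.199%). The chromosome was chosen with earlier results of these data known. The study's own counts per chromosome give fewer mRNAs for it, and the reason for the difference was not examined. Levels were measured by sequencing of ribosomal-RNA-depleted RNA from the cerebrum of female Tibetan chickens, a highland breed, with 1 bird per library. The 18 libraries used covered 7 stages: embryonic days 12 (E12, n = 3), 16 (E16, n = 3) and 20 (E20, n = 2), 100 days after hatching (D100, n = 3), and hens aged 1 year (Y1, n = 3), 3 years (Y3, n = 2) and 5 years (Y5, n = 2). By the growth protocol in the labels, the 8 embryos came from incubated eggs, the D100 birds from a farm in Ya'an and the 7 adult hens of Y1, Y3 and Y5 from Lhasa, so that age and place of rearing cannot be told apart between embryos, D100 birds and adult hens.

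The MHC holds the genes of class I molecules, which show peptides from inside a cell to cytotoxic T cells, and of class II molecules, which show peptides of engulfed material to helper T cells. In the chicken, peptide transporters, lectin-like genes and a family of immunoglobulin-like B-G genes lie close to the class I and class II genes, and other genes of the chromosome have no part in antigen presentation. In the mammalian brain, MHC molecules are found mainly on microglia and on cells of the blood vessels, at levels that change with age and inflammation. The deposited table names each mRNA only by an Ensembl gene identifier and its chromosome, and 0 of the 29 identifiers could be paired with a gene symbol here, so that which member encodes which MHC molecule was not determined. For the same reason the tissue label was not checked against marker genes, and no sequence or position within the chromosome is given. The families of this chromosome hold copies of similar sequence, so reads may have been shared between members that are such copies. In tissue RNA, a difference can come from more cells of a type or from more RNA per cell, which cannot be told apart.

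All levels below are log2(FPKM+1) unless FPKM (fragments counted per unit of transcript length and of library size) is named. Differences between stages come from a limma fit over all 14558 mRNAs, and on this scale the difference of a weakly expressed mRNA is smaller than its change in FPKM. The summed FPKM of a library lay between 522546 and 811815, and mitochondrial mRNAs made up 28.8% of it in D100 replicate 3 and 0.43% to 5.62% in the others. The number of mRNAs at 0 was 57 to 318 per library.

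The members were mostly weakly to moderately expressed. Their median level over the 18 libraries was 2.28, against 3.48 for all mRNAs, and 14 of the 29 members exceeded 1 FPKM in every library. ENSGALG00000000122 was the most abundant by far, with a mean level of 7.92 that placed it at the 98.8th percentile of all mRNAs. The mean levels of the next 7 were 4.77 for ENSGALG00000041380, 4.17 for ENSGALG00000039964, 4.14 for ENSGALG00000033932, 4.03 for ENSGALG00000000156, 3.64 for ENSGALG00000000158, 3.63 for ENSGALG00000008022 and 3.52 for ENSGALG00000027546. A value of 0 was listed in 3 libraries for ENSGALG00000034219, in 2 for ENSGALG00000031092 and in 1 library each for ENSGALG00000019835, ENSGALG00000043052, ENSGALG00000029381 and ENSGALG00000032602.

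The question of how the chromosome's mRNAs differ between the adult and the embryonic cerebrum was addressed by setting the mean of the Y1, Y3 and Y5 stage means against that of E12, E16 and E20. A small group of members was many times higher in adult hens than in embryos, whereas the most abundant member was lower. At a Benjamini-Hochberg adjusted p of at most 0.05, 12 of the 29 members were called (41.4%), which was close to the 42.9% of all mRNAs called. Of these, 9 members were higher in adult hens (background 21.1% of all mRNAs) and 3 were lower (background 21.8%). The median difference was 0.39 over the members and -0.03 over all mRNAs. The members stood out more in the size of the rise than in the number of calls. In 6 members (20.7%) the called rise was at least 2 on the log2 scale, against 1.3% of all mRNAs, a limit chosen after the values were seen. ENSGALG00000029381 lay just inside that limit at 2.11 and ENSGALG00000032602 just outside it at 1.87. At a Bonferroni-adjusted p of at most 0.05 and a fold of at least 2, 6 members were higher (background 3.54%) and 1 was lower (background 2.44%). That fold was taken from the difference in log2(FPKM+1), so it is not a fold in FPKM.

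**Figure D1:**
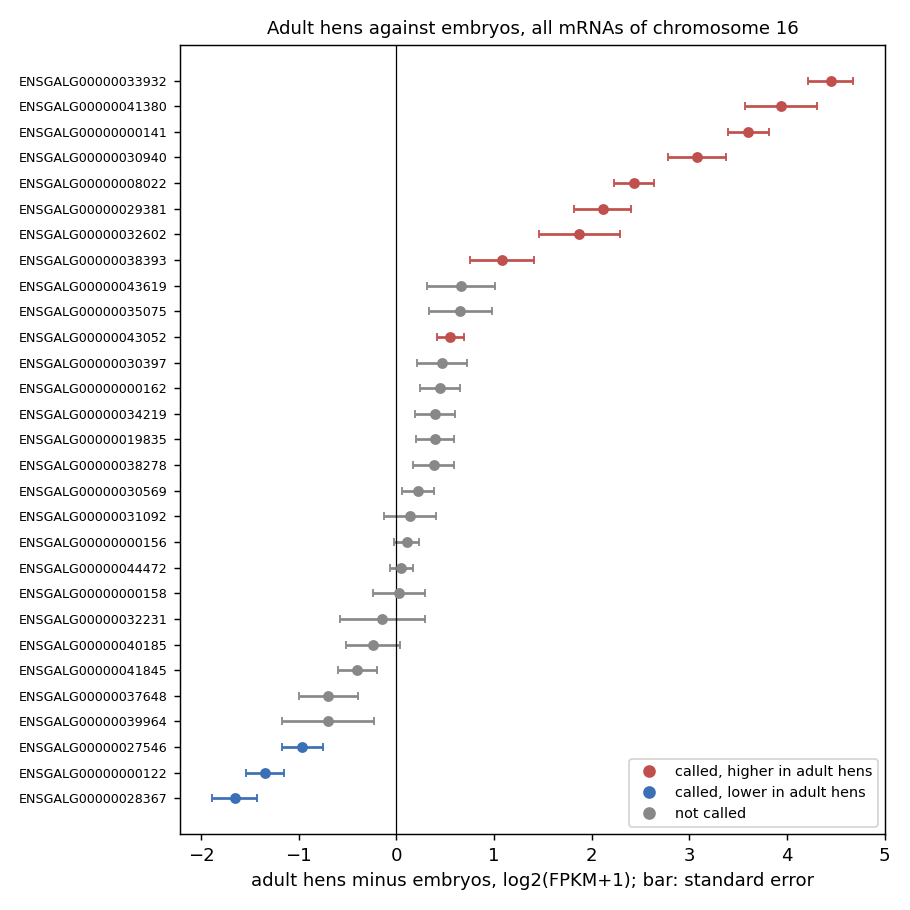
Difference between adult hens (Y1, Y3 and Y5) and embryos (E12, E16 and E20) for each of the 29 mRNAs of chromosome 16, on the log2(FPKM+1) scale, with the standard error of the limma fit as bars. The 9 red points were called higher and the 3 blue points lower in adult hens, and the 17 grey points were not called. The top 6 points lie between 2.11 and 4.45.

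ENSGALG00000033932 had the largest rise of the chromosome. Its level was 6.48, 6.80 and 7.37 at Y1, 5.20 and 6.85 at Y3, and 5.60 and 5.52 at Y5, against 1.48, 1.70 and 1.73 at E12, 1.74, 1.88 and 2.35 at E16, and 1.50 in both libraries of E20. Every adult hen lay far above every embryo. The mean FPKM was 86.5 ± 46.8 in adult hens (SD, n = 7) and 2.39 ± 0.76 in embryos (SD, n = 8), a 36.1-fold difference. On the log2 scale the difference was 4.45 (SE 0.23, limma adjusted p = 4.87e-09), which ranked 6 among the rises of all 14558 mRNAs.

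ENSGALG00000041380 had the highest mean level of the risen members over the 18 libraries. It had 6.62, 6.97 and 6.20 at Y1, 5.95 and 8.35 at Y3, and 6.07 and 5.82 at Y5, against 1.88, 3.20 and 2.76 at E12, 1.95, 2.22 and 3.96 at E16, and 1.96 and 3.12 at E20. The lowest adult hen was still above the highest embryo, and Y3 replicate b was far above the other hens. Its mean of 115 ± 96.3 FPKM in adult hens (SD, n = 7) was 19.0 times the 6.04 ± 4.09 FPKM of embryos (SD, n = 8), and 13.1 times without that library. The log2 difference was 3.94 (SE 0.37, limma adjusted p = 9.71e-07) and ranked 16 among all rises. The median of ENSGALG00000041380 in adult hens, 72.3 FPKM, was below that of ENSGALG00000033932, 88.4 FPKM.

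ENSGALG00000000141 varied less between the hens. Its level was 4.68, 4.99 and 5.31 at Y1, 4.14 and 4.34 at Y3, and 4.67 and 4.66 at Y5, whereas the embryos had 0.41, 1.36 and 1.42 at E12, 1.51, 0.75 and 0.84 at E16, and 0.88 and 1.11 at E20. The groups were separated by more than the whole range of either. It averaged 25.5 ± 7.35 FPKM in adult hens (SD, n = 7) and 1.11 ± 0.54 FPKM in embryos (SD, n = 8). The difference was 3.60 (SE 0.21, limma adjusted p = 1.40e-08), rank 23 among all rises.

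ENSGALG00000030940 had 4.17, 4.65 and 4.79 at Y1, 5.18 and 6.98 at Y3, and 4.29 and 4.11 at Y5, against 1.29, 1.61 and 1.59 at E12, 1.41, 1.33 and 1.67 at E16, and 2.58 and 2.64 at E20. Both Y3 libraries were above all other hens. Both E20 libraries were above the other embryos, but the difference between E20 and E16 of 1.14 (SE 0.52, limma adjusted p = 0.16) did not pass the test. The ratio of the mean FPKM of adult hens to that of embryos was 14.3 and decreased to 8.71 without Y3 replicate b. On the log2 scale the difference was 3.08 (SE 0.30, limma adjusted p = 1.27e-06).

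ENSGALG00000008022 was the most even of the risen members among the hens, with a lowest level of 4.40, a median of 4.71 and a highest of 5.14 in adult hens, against 1.56, 2.30 and 2.94 in embryos. Its mean was 26.4 ± 4.81 FPKM in adult hens (SD, n = 7) and 4.30 ± 1.49 FPKM in embryos (SD, n = 8), and the log2 difference was 2.44 (SE 0.20, limma adjusted p = 3.41e-07). ENSGALG00000029381 had a lowest level of 1.66, a median of 3.06 and a highest of 3.53 in adult hens, against 0.00, 0.56 and 1.46 in embryos, where 1 library was listed at 0. Its difference was 2.11 (SE 0.29, limma adjusted p = 3.72e-05).

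**Figure D2:**
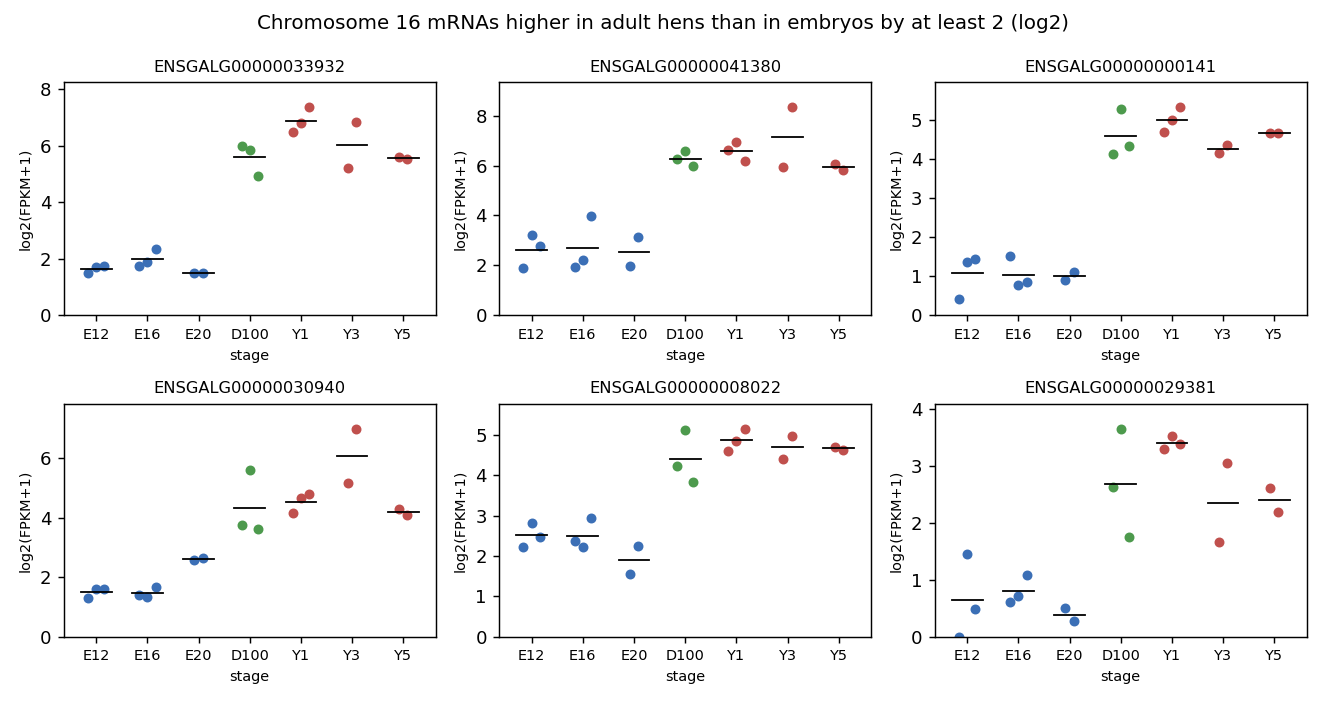
Level in log2(FPKM+1) of the 6 members whose rise from embryos to adult hens was at least 2, plotted against stage. Each point is 1 bird, coloured blue for embryos, green for D100 and red for adult hens, and the line is the stage mean. In each panel all adult points lie above all embryonic points, and the D100 points of the first panel lie between 4.94 and 6.01.

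The other 3 called rises were smaller or less even. ENSGALG00000032602 had a lowest level of 1.71, a median of 2.34 and a highest of 4.55 in adult hens, against 0.00, 0.63 and 1.66 in embryos, with a difference of 1.87 (SE 0.41, limma adjusted p = 0.00185). Its ratio of mean FPKM was 8.64, and 4.92 without Y3 replicate a, the library with the highest level. ENSGALG00000043052 was weakly expressed throughout, with 0.45, 0.96 and 1.29 as lowest, median and highest level in adult hens and 0.00, 0.29 and 0.42 in embryos, and differed by 0.55 (SE 0.14, limma adjusted p = 0.00536). ENSGALG00000038393 overlapped between the groups, with 1.96, 4.17 and 5.04 in adult hens and 1.80, 2.52 and 3.08 in embryos. Its difference of 1.08 (SE 0.33, limma adjusted p = 0.0144) was not called without Y3 replicate b (adjusted p = 0.0565) or without Y5 replicate a (adjusted p = 0.0509). In all, every adult library lay above every embryonic library in 8 members (27.6%, background 5.87%), which were the 9 called rises except ENSGALG00000038393.

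The 3 members that fell include the one with the highest level. ENSGALG00000000122 had 7.18, 7.69 and 7.75 at Y1, 7.33 and 6.96 at Y3, and 7.25 and 7.08 at Y5, against 8.89, 8.55 and 8.66 at E12, 9.41, 9.56 and 8.55 at E16, and 7.40 and 8.65 at E20. Only E20 replicate 1 lay within the range of the hens. The mean was 162 ± 34.9 FPKM in adult hens (SD, n = 7) and 453 ± 186 FPKM in embryos (SD, n = 8), and the log2 difference was -1.35 (SE 0.20, limma adjusted p = 6.16e-05).

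ENSGALG00000028367 showed the largest fall. It had 2.25, 2.08 and 2.74 at Y1, 1.76 and 2.46 at Y3, and 1.13 and 1.55 at Y5, against 4.30, 3.68 and 4.15 at E12, 3.58, 3.74 and 3.41 at E16, and 2.91 and 3.40 at E20. It was the only member of which every adult library lay below every embryonic library (3.45% of the members, background 5.03%), and it differed by -1.65 (SE 0.23, limma adjusted p = 4.01e-05). ENSGALG00000027546 had a lowest level of 2.42, a median of 2.95 and a highest of 3.86 in adult hens, against 3.19, 3.90 and 4.76 in embryos. It differed by -0.96 (SE 0.21, limma adjusted p = 0.00177), and its stage mean was highest at E20, at 4.55. The next largest negative differences, -0.70 for both ENSGALG00000039964 (limma adjusted p = 0.244) and ENSGALG00000037648 (limma adjusted p = 0.0732), did not pass the test. The 17 members that were not called had differences between -0.70 and 0.66, the highest being that of ENSGALG00000043619 (limma adjusted p = 0.136). Among them were 6 members of mean levels between 1.06 and 3.35, which are not described further: ENSGALG00000030397 (difference 0.47), ENSGALG00000000162 (0.44), ENSGALG00000035075 (0.66), ENSGALG00000040185 (-0.24), ENSGALG00000030569 (0.22) and ENSGALG00000038278 (0.38).

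**Figure D3:**
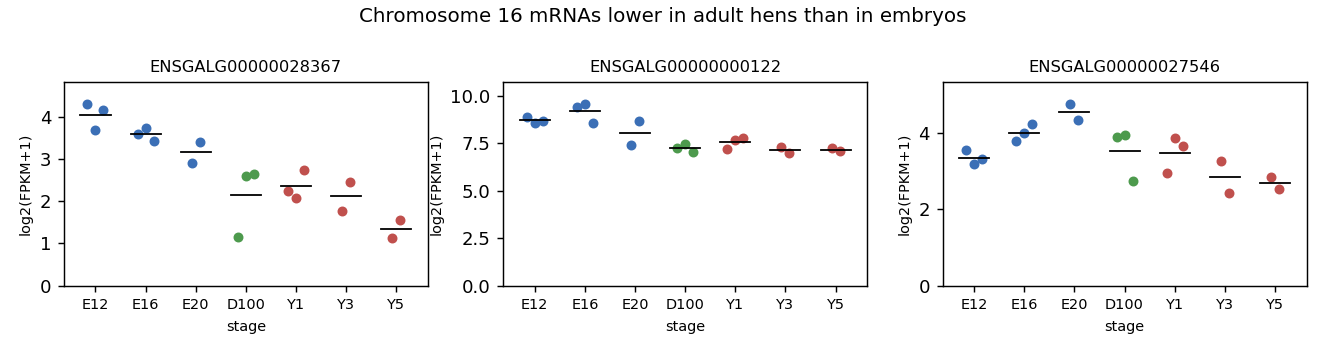
Level in log2(FPKM+1) of the 3 members lower in adult hens than in embryos, plotted against stage. Each point is 1 bird (blue, embryos; green, D100; red, adult hens) and the line is the stage mean. ENSGALG00000028367 has stage means between 4.04 at E12 and 1.34 at Y5.

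The opposite directions left the summed level of the chromosome similar while its make-up differed. The summed FPKM of the 29 members ranged from 298 to 914 in embryos (median 551), from 370 to 604 at D100 and from 381 to 857 in adult hens (median 519). The 6 members with a rise of at least 2 made up 1.40% to 5.50% of it in embryos, 37.3% to 46.6% at D100 and 35.2% to 72.7% in adult hens. ENSGALG00000000122 alone made up 14.4% to 35.3% in adult hens and 56.4% to 82.9% in embryos. The other 22 members together had 78.3 to 204 FPKM in adult hens and 101 to 146 FPKM in embryos, so that these ranges overlapped. As the 6 members were grouped by their own values, these shares are a description. Y3 replicate b, with 623 FPKM in the 6 members, set the upper end of the adult range, and the next highest hen, Y1 replicate 3, had 346 FPKM.

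**Figure D4:**
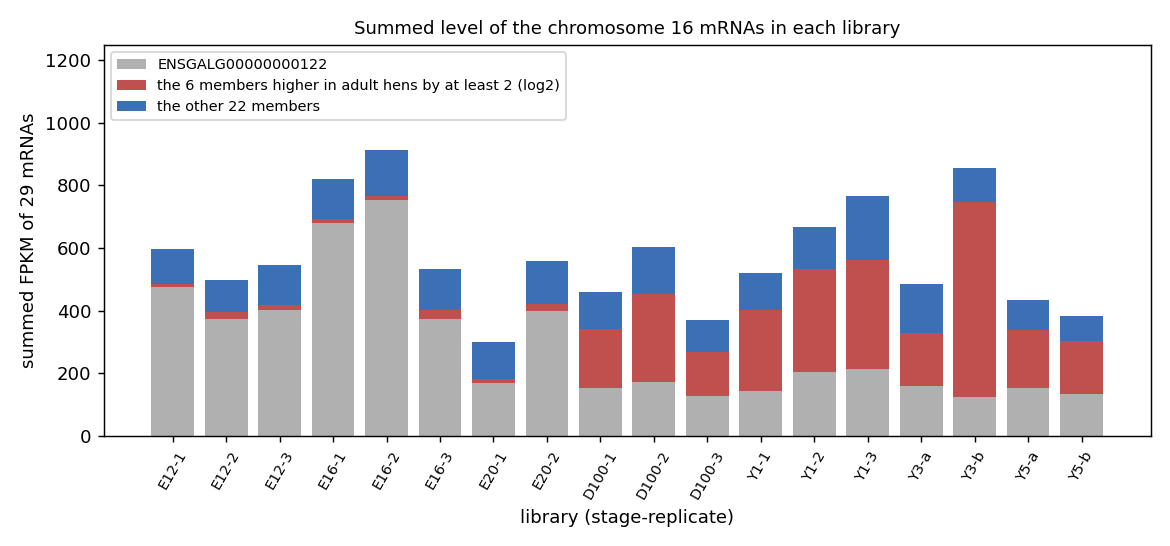
Summed FPKM of the 29 mRNAs of chromosome 16 in each of the 18 libraries, in stage order, as stacked bars for ENSGALG00000000122 (grey), the 6 members with a rise of at least 2 (red) and the other 22 members (blue). The red part is 168 to 623 FPKM in adult hens and 9.92 to 29.4 FPKM in embryos.

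Consecutive stages among those analysed were compared with a stricter rule. D300, a stage of the study between D100 and Y1, was not analysed, so Y1 against D100 spans it. The rule was a Bonferroni-adjusted p of at most 0.05 and a fold of at least 2 or at most 0.5. Here too the fold was taken from the difference in log2(FPKM+1). The one step at which members were called was D100 against E20, the step across hatching. There, 3 members were higher (background 0.151% of all mRNAs higher and 0.234% called in either direction). ENSGALG00000033932 had 6.01, 5.84 and 4.94 at D100, against 1.50 in both libraries of E20, a difference of 4.10 (SE 0.40, limma Bonferroni-adjusted p = 0.00042). ENSGALG00000000141 had 4.12, 5.26 and 4.32 at D100, against 0.88 and 1.11 at E20, a difference of 3.57 (SE 0.36, limma Bonferroni-adjusted p = 0.000697). In ENSGALG00000008022 the levels were 4.24, 5.11 and 3.82 at D100, against 1.56 and 2.24 at E20, a difference of 2.49 (SE 0.35, limma Bonferroni-adjusted p = 0.0446).

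The call of ENSGALG00000008022 was lost without D100 replicate 1 (adjusted p = 0.16), D100 replicate 2 (adjusted p = 0.157), E20 replicate 1 (adjusted p = 1) or E20 replicate 2 (adjusted p = 0.165). When only the libraries of the D100 and E20 stages entered the fit, 0 of the 3 were called. Without D100 replicate 3, the library rich in mitochondrial mRNAs, all 3 were called.

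At a Benjamini-Hochberg adjusted p of at most 0.05, 8 members were higher at D100 than at E20 (27.6%, background 3.42%). The 5 further members were ENSGALG00000041380 (difference 3.73, limma adjusted p = 0.00428), ENSGALG00000029381 (2.29, limma adjusted p = 0.0141), ENSGALG00000030940 (1.72, limma adjusted p = 0.0492), ENSGALG00000041845 (1.27, limma adjusted p = 0.0351) and ENSGALG00000000156 (0.75, limma adjusted p = 0.0464). All 6 members with the large adult rise were among these 8. The E20 libraries also entered the embryo mean by which the risen members were grouped, so this overlap is partly built in. With only the D100 and E20 libraries in the fit, ENSGALG00000033932 (adjusted p = 0.0466) and ENSGALG00000041380 (adjusted p = 0.0486) were called, and the other 6 were not, with adjusted p between 0.0561 for ENSGALG00000000141 and 0.355 for ENSGALG00000000156. Each of the 5 further calls was lost without E20 replicate 1, with adjusted p between 0.0575 for ENSGALG00000041380 and 0.186 for ENSGALG00000030940, and all but that of ENSGALG00000041380 also without E20 replicate 2, with adjusted p between 0.0813 and 0.217. Those of ENSGALG00000030940 (adjusted p = 0.118) and ENSGALG00000000156 (adjusted p = 0.12) were lost without D100 replicate 2, and that of ENSGALG00000041845 without D100 replicate 3 (adjusted p = 0.0652).

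Before hatching, 0 members were called at E16 against E12 (background 0.158%) and 0 at E20 against E16 (background 0.611%) in the limma fit. An unadjusted limma p under 0.05 was found for 3 and 7 members, respectively. The share of all mRNAs under that unadjusted limit is not given, so these counts cannot be read as an excess. At the Benjamini-Hochberg limit, 3 members were lower at E20 than at E16 (10.3%, background 8.39%), and 0 of these 3 calls remained with only the E20 and E16 libraries in the fit (adjusted p between 0.0743 and 0.201). ENSGALG00000041845 had 1.01 and 1.00 at E20, against 2.86, 2.87 and 1.98 at E16, a difference of -1.56 (SE 0.35, limma adjusted p = 0.00837). It was also among the 8 members higher at D100, where it had 1.77, 1.95 and 3.09. The same E20 libraries enter both steps, so a fall to E20 and a rise after it are not independent results. ENSGALG00000000156, also among those 8, had 3.62 and 3.38 at E20, against 3.95, 4.06 and 4.61 at E16 (limma adjusted p = 0.0488, and 0.0538 after scaling by median ratios). The third was ENSGALG00000000122, with a difference of -1.15 (limma adjusted p = 0.0378) that shrank to -0.53 without E20 replicate 1 (adjusted p = 0.476). Without that library the adjusted p was 0.076 for ENSGALG00000041845 and 0.135 for ENSGALG00000000156. ENSGALG00000000122 was not called either without E16 replicate 1 (adjusted p = 0.11) or E16 replicate 2 (adjusted p = 0.132), nor ENSGALG00000000156 without E16 replicate 2 (adjusted p = 0.0757), E16 replicate 3 (adjusted p = 0.124) or E20 replicate 2 (adjusted p = 0.209).

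After D100, no member passed the strict rule at any of the steps compared, of which Y1 against D100 spans D300. Under it, 0 members were called at Y1 against D100 (background 0.172%), 0 at Y3 against Y1 (background 0.00687%) and 0 at Y5 against Y3 (background 0.0481%). An unadjusted limma p under 0.05 was found for 5, 4 and 4 members, respectively. As no share of all mRNAs is given for that limit, these counts cannot be read as an excess. At the Benjamini-Hochberg limit, 1 member was higher at Y1 than at D100 (3.45%, background 5.58%). This was ENSGALG00000033932, with a difference of 1.28 (SE 0.36, limma adjusted p = 0.0404). The median of all mRNAs also differed by 0.14 between these stages, and after scaling of the libraries to a common median ratio, which brought that median to 0.01, the difference of ENSGALG00000033932 was 1.13 (adjusted p = 0.0522). Without D100 replicate 3 it was 0.96 (adjusted p = 0.119), and with only the compared stages in the fit the adjusted p was 0.105. The call was also lost without D100 replicate 1 (adjusted p = 0.0583), Y1 replicate 1 (adjusted p = 0.0567), Y1 replicate 2 (adjusted p = 0.0937) or Y1 replicate 3 (adjusted p = 0.148). The later steps with the smallest unadjusted p were those of ENSGALG00000030940, whose difference was 1.55 at Y3 against Y1 (SE 0.52, limma adjusted p = 0.355) and -1.89 at Y5 against Y3 (SE 0.56, limma adjusted p = 0.125), both resting on its high level at Y3.

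Older hens (Y3 and Y5) were set against Y1 hens, all of which were collected in Lhasa. In the limma fit 0 members were called (background 1.2%). With no adjustment, 7 members had a limma p under 0.05. The share of all mRNAs under that limit is not given, so this count cannot be read as an excess. Of the 29 members, 20 had a lower mean in older hens (69.0%, against 50.6% of all mRNAs). The median difference was -0.33 over the members and -0.01 over all mRNAs. The members were measured in the same few hens and are not independent, and this share was not tested. ENSGALG00000033932 had 5.20 and 6.85 at Y3 and 5.60 and 5.52 at Y5, against 6.48, 6.80 and 7.37 at Y1, a difference of -1.09 (SE 0.34, limma adjusted p = 0.13). Of the older hens, Y3 replicate b alone reached the range of the Y1 hens, and without it the difference was -1.50 (limma adjusted p = 0.037) and ENSGALG00000033932 was the one member called.

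The 2 largest negative differences between older hens and Y1 hens were those of ENSGALG00000038393 and ENSGALG00000037648. ENSGALG00000038393 had 3.27 and 4.33 at Y3 and 2.67 and 1.96 at Y5, against 4.17, 4.18 and 5.04 at Y1, a difference of -1.40 (SE 0.47, limma adjusted p = 0.157). ENSGALG00000037648 had 1.82 and 1.52 at Y3 and 1.81 and 0.69 at Y5, against 2.89, 2.85 and 2.76 at Y1, a difference of -1.37 (SE 0.44, limma adjusted p = 0.139). The older hens did not overlap the Y1 hens in ENSGALG00000037648, whereas 1 of 4 did in ENSGALG00000038393. Neither member was called. The share of all mRNAs without such overlap is not given, so the lack of overlap cannot be read as unusual. The largest positive difference was that of ENSGALG00000043619, with 3.64 and 1.39 at Y3 and 2.63 and 2.53 at Y5, against 0.84, 0.90 and 1.94 at Y1 (difference 1.32, SE 0.50, limma adjusted p = 0.21). Over the 7 stages, 9 of the 29 members had their highest stage mean at Y1 (9.9% of all mRNAs). The lowest was at E20 in 8 members (17.2% of all mRNAs) and at E12 in 7 (14.05% of all mRNAs). Y1 and E20 were named for their largest counts after the values were seen, and these counts were not tested.

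Birds of the same stage differed more in these mRNAs than in most others. The within-stage SD had a median of 0.49 over the members and 0.32 over all mRNAs, and 10 of the 29 members (34.5%) were above the 90th percentile of all mRNAs. The members also had a lower median level (2.28 against 3.48), and the spread was not compared with mRNAs of matched level. ENSGALG00000039964 was the most variable, with an SD of 1.05. At Y1 it had 2.18, 2.53 and 5.91, the widest range of any stage in this member. ENSGALG00000032231 followed with an SD of 0.96, and had 0.62, 3.37 and 0.57 at D100 and 2.53 and 0.88 at Y5. ENSGALG00000032602 had an SD of 0.90, with 2.96, 0.57 and 0.35 at D100 and 4.55 and 1.84 at Y3. The most even member was ENSGALG00000044472, a weakly expressed mRNA with an SD of 0.15 and stage means between 0.79 at E20 and 1.26 at E16.

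**Figure D5:**
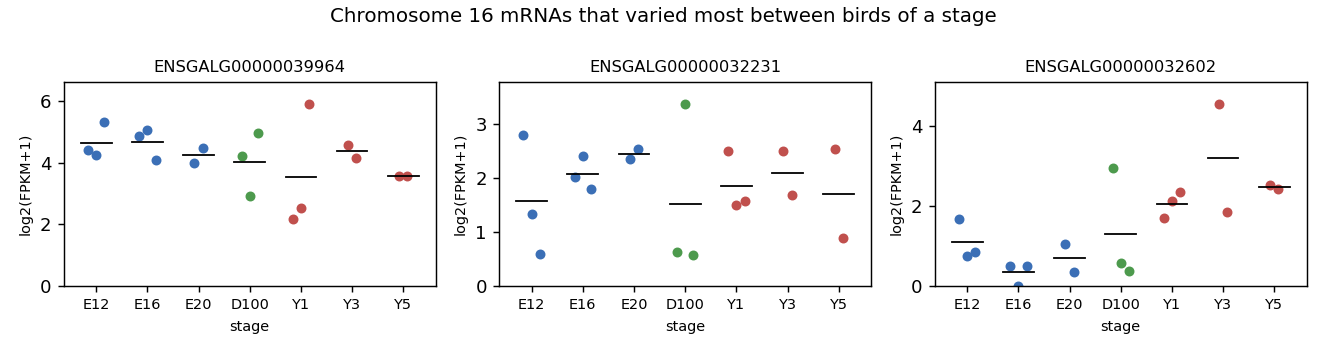
Level in log2(FPKM+1) of the 3 members with the largest spread between birds of the same stage, plotted against stage, with 1 point per bird (blue, embryos; green, D100; red, adult hens) and the stage mean as a line. The Y1 points of ENSGALG00000039964 lie at 2.18, 2.53 and 5.91.

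The pattern of ENSGALG00000033932, the member that changed most, was most like those of ENSGALG00000008022 (Pearson r = 0.97), ENSGALG00000000141 (r = 0.96) and ENSGALG00000041380 (r = 0.95) over the 18 libraries. All of these share the step between embryos and hatched birds and come from the same libraries. Over the 10 libraries of hatched birds, the values were 0.71, 0.52 and 0.58. Over these birds, ENSGALG00000038393 (r = 0.83) and ENSGALG00000029381 (r = 0.80) were more alike to it. ENSGALG00000000122, which was lower in adult hens than in embryos, had r = 0.51. Among the 6 risen members, ENSGALG00000030940 and ENSGALG00000041380 had r = 0.78 over the hatched birds, where both were highest in Y3 replicate b, while ENSGALG00000000141 and ENSGALG00000041380 had r = 0.00. These correlations are descriptions of levels that were not scaled between libraries. Among the hatched birds, D100 replicate 3, the library rich in mitochondrial mRNAs, was lowest in ENSGALG00000033932 (4.94) and ENSGALG00000008022 (3.82). It was not the lowest in ENSGALG00000000141 or ENSGALG00000041380. The part of this library in the correlations was not tested.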

How the data were processed

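RNA-seq of 21 cerebrum libraries was deposited. According to the study's methods and the submitters' processing notes, HISAT2 mapped the reads onto the Gallus_gallus-5.0 assembly, transcripts were assembled with StringTie 1.3.3, FPKM was computed with Cufflinks 2.2.1, and mRNAs were kept at FPKM above 0.1. The authors deposited the mRNA values as log2 of FPKM plus a pseudocount of 1. Read counts were not used here, so that no counting error can be given for a value. Of the value columns, 3 have names that give no stage; these were left out, and D300 was not analysed here. Columns of Y3 and Y5 carry numbers that differ from the sample labels and are called replicate a and b. The lncRNA table was not used here.

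Comparisons were made with limma 3.58.1 in R 4.3.3 (lmFit, eBayes with a trend), with 7 stage means in a single fit of all 14558 mRNAs. The procedure was run on simulated data with independent normal noise and changes of known size added. The simulated libraries had no effects shared by many mRNAs, so the simulation cannot show how calls depend on single libraries. Within-stage spread was the residual SD of the limma fit of the 7 stage means. Sums and figures were made with Python 3.11.15, numpy 2.4.6, pandas 2.3.3 and matplotlib 3.10.9. The members, the call rules and the lists were chosen with earlier results of these data known. Named were the 8 most abundant members, the 5 largest differences in each direction, all called members and all listed at 0. Members further named for their spread or for older hens were chosen after their values were seen. Lists of MHC genes and cell type markers, written with symbols, were not used because the identifiers were not paired with symbols. Alternatives were another pseudocount (0.1), a minimum mean of 1 FPKM, a fit of the compared stages only, scaling by median ratios, another call rule, a replicate block and leaving out each library.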

Additional observations from a re-analysis of the deposited data

Results flagged for a closer look

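For the 12 members called between adult hens and embryos, each of both groups was searched for a single library far from the others (24 groups), and 5 groups held one. The limit used flags about 1 in 20 groups when all values come from a single normal distribution. Each group here pooled several stages, and the members share the same libraries, so that rate need not hold. ENSGALG00000030940 had 6.98 in Y3 replicate b, against 5.18 in the next highest adult hen. ENSGALG00000032602 had 4.55 in Y3 replicate a, against 2.53 in the next highest hen. Among embryos, ENSGALG00000033932 had 2.35 in E16 replicate 3, against 1.88 in the next library, and ENSGALG00000000122 had 7.40 in E20 replicate 1, against 8.55 in the next. ENSGALG00000043052 was listed at 0 in E16 replicate 2, against 0.25 in the next library. The 5 flags fall in 5 different libraries. Each of these 5 members was still called between adult hens and embryos without the library concerned.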

How the results depend on the processing

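Between adult hens and embryos, the numbers of members called stayed at 9 higher and 3 lower, or within 1.5 times, under every alternative, except that 1 member instead of 3 was lower with a fold of at least 2 and Bonferroni adjustment. For older hens against Y1, leaving out each library gave 0 to 1 members lower, with the 1 call made without Y3 replicate b. With the Benjamini-Hochberg limit and no minimum fold, 3 members were lower at E20 against E16, 8 higher at D100 against E20 and 1 higher at Y1 against D100. With the compared stages only, 0 were higher at D100 against E20 by the strict rule (ENSGALG00000033932 adjusted p = 0.0967, ENSGALG00000000141 adjusted p = 0.449). Of 194 recomputed counts, 188 were within 1.5 times of the value given, and no difference of a called member changed sign. The 188 are mostly counts of 0 that stayed at 0, and a drop from 3 to 2 also falls within 1.5 times. For single members called between consecutive stages at the Benjamini-Hochberg limit, the call was kept in 78 recomputed tests and lost in 43. With the replicate block, 2 members were higher at D100 against E20, since ENSGALG00000008022 was not called (adjusted p = 0.357). The deviations of same-numbered birds from their stage means had r from -0.34 to 0.34. Differently numbered birds were not compared, so these values cannot decide whether the numbers pair birds. By the study, each library came from a different bird, and comparisons with Y3 or Y5 had no numbers to pair. The cause of the changes between settings was not tested. With 2 or 3 birds a stage, small differences may have been missed.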
